A study of Mus musculus with 6 samples.

Results

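miR-22 is a single miRNA gene in the mouse, and its hairpin gives 2 mature miRNAs, miR-22-3p and miR-22-5p, one from each arm. The members described here are the rows of the deposited count table named mmu-miR-22-3p and mmu-miR-22-5p, 2 of 1982 miRNA rows, of which 954 had at least 1 count. They were picked by name as the arms of a miRNA that is abundant in muscle and heart, and earlier results on their level, arm ratio and group difference were known when they were picked. Those values are therefore given as a description with no test, and counts of arms past a threshold stand beside the share of all miRNAs past it only as background.

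Exosomes, small vesicles that cells shed into the blood, were pelleted from serum obtained by heart puncture, and their small RNA was sequenced as 1 library per mouse. All 6 mice were male C57BL/6 mice aged 3 months without a transgene or a disease model. The 3 sham mice, numbered 1 to 3, went through the needling off the treatment points, without any current. The 3 Acu/LFES mice, numbered 4 to 6, received acupuncture with low frequency electrical stimulation of the hindlimb in a single session of 30 min. The interval between the session and the bleeding of these mice is not given in the sources used here. Total counts ranged from 391708 to 658833 in sham mice and from 517421 to 1504137 in Acu/LFES mice. The vesicle pellet is a mixture from many tissues, so more vesicles of a source and more miRNA per vesicle cannot be told apart.

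A miRNA hairpin is cut in the nucleus and again in the cytoplasm to a short duplex, of which usually a single strand stays in the silencing complex while the other is degraded. The kept strand finds its target mRNAs mainly through its seed, bases 2 to 8 from the 5′ end. miR-22-3p is the arm usually retained. It is abundant in skeletal and cardiac muscle, where it has been linked to myoblast differentiation and to growth of the heart under load, and it is also present in blood-forming cells.

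Both arms were found in the RefSeq miRNA table for GRCm38.p6, and their sequences are shown because the seed sets what each arm can bind and because they decide whether reads could be shared with another row. In the arm sequences the capitals mark the seed, and in the hairpin they mark the arms.
miR-22-3p, chr11:75463772-75463793, plus strand: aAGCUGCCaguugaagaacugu
miR-22-5p, chr11:75463734-75463755, plus strand: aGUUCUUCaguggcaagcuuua
Mir22 hairpin, chr11:75463716-75463810, plus strand: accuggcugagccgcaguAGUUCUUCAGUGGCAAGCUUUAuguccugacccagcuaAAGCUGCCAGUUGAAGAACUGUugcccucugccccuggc

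Each arm has 22 bases, both begin with an A, and the G and C content is 45.5% for miR-22-3p and 40.9% for miR-22-5p. In the lowest-energy fold predicted by RNAfold, at -41.9 kcal/mol, 19 of the 22 bases of each arm paired with the other arm, among them all 7 seed bases of each. The hairpin lies in exon 2 of both annotated transcripts of Mir22hg, a long noncoding gene that hosts it, and also in exon 2 of Tlcd2-203, a transcript of the neighbouring gene Tlcd2 that is annotated without a coding sequence (GENCODE M21). The seeds of the arms differ, and among 1678 other mature mouse miRNAs 0 shared the seed of either. The closest mature sequence to miR-22-3p was miR-3966, at 3 edits, with 3 counts over all mice, and the closest to miR-22-5p stood 8 edits away. Among the deposited rows 0 had the same counts as either arm, so the values below are not copies of another row.

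miR-22-3p had 2323, 1390 and 1031 counts in sham mice 1, 2 and 3, and 6776, 2570 and 7677 counts in Acu/LFES mice 4, 5 and 6. It was thus well counted in every library. Ordered by count among all rows of its own library, which needs no scaling, it held rank 26, 31 and 29 after sham and rank 25, 19 and 19 after Acu/LFES. Each Acu/LFES library ranked it above each sham library, by a single place between mouse 4 and mouse 1. The share of all miRNAs for which this held by rank was not counted, so nothing is read from it.

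For the main values the counts were put on a common scale as counts per 1000000 (CPM) with TMM factors, which align the libraries on the miRNAs that change least. On this scale miR-22-3p stood at 3349, 3243 and 3407 CPM in sham mice 1, 2 and 3. It stood at 4055, 5344 and 7006 CPM in Acu/LFES mice 4, 5 and 6. The groups did not overlap, and mouse 6 was the highest. The mean was 3333 ± 83.4 CPM in sham mice and 5468 ± 1479 CPM after Acu/LFES (SD, n = 3 each), a ratio of means of 1.64. The log2 fold change of Acu/LFES over sham was 0.71 with a standard error of 0.25 in edgeR's quasi-likelihood fit over the 259 miRNAs that passed its filter on low counts. Both arms passed that filter.

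Under that fit 0 of the 2 arms had an adjusted p under 0.05, and so did 0% of all miRNAs tested. At an unadjusted p under 0.05 the count was 1 of 2 arms, namely miR-22-3p, beside 8.88% of all miRNAs tested in either direction and 5.79% in the upward direction. DESeq2's Wald test gave no adjusted p for miR-22-5p, and that of miR-22-3p was not under 0.05, beside 5.41% of all miRNAs with an adjusted p. At an unadjusted p under 0.05 it gave 1 of 2 arms, again miR-22-3p, beside 11.2% of all miRNAs. Every Acu/LFES mouse lay above every sham mouse for 8.88% of all miRNAs tested with TMM factors. Since the contrast was known when the arms were picked, nothing is read from these counts.

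**Figure D1:**
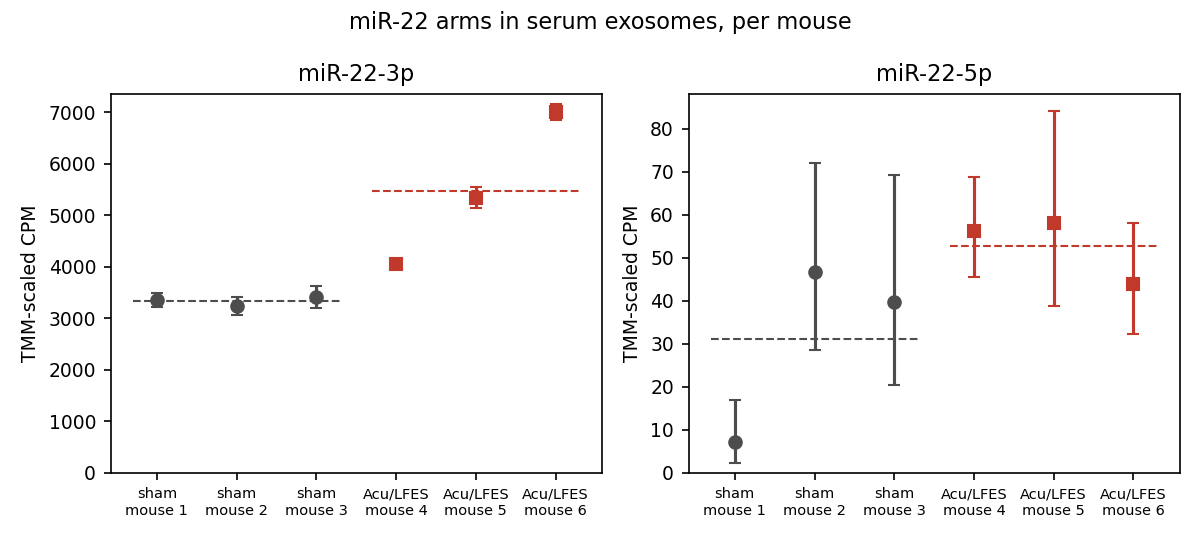
TMM-scaled CPM (vertical axes, starting at 0) of miR-22-3p and miR-22-5p in each mouse, with sham mice as circles and Acu/LFES mice as squares. Bars are exact 95% Poisson intervals of the counts and dashed lines are group means. miR-22-3p lies between 3243 and 3407 CPM after sham and between 4055 and 7006 CPM after Acu/LFES, whereas miR-22-5p overlaps between the groups.

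The sham mice were very alike in miR-22-3p on the TMM scale. Their coefficient of variation was 2.50%, against a median of 43.2% over all miRNAs tested and of 15.4% over the 50 miRNAs with a mean of at least 1000 CPM. In the Acu/LFES mice the coefficient of variation was 27.0%, against 24.6% over the same 50 miRNAs. The closeness of the sham mice depended on the scaling. Their SD was 83.4 CPM with TMM factors, 138 CPM with TMM factors computed without the miR-22 arms, 271 CPM with the size factors of DESeq2, 448 CPM with upper-quartile factors and 820 CPM with total counts. Under each of these scalings the Acu/LFES mice lay above the sham mice, as they did for 9.27% of all miRNAs with TMM factors computed without the arms, 8.49% with upper-quartile factors, 8.88% with the size factors of DESeq2 and 15.8% with total counts.

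Library scaling matters here because miR-486a-5p and miR-486b-5p, listed with identical counts, took most counts of most libraries. Their share was 61.7%, 74.0% and 71.2% in sham mice 1, 2 and 3 and 61.9%, 73.5% and 29.2% in Acu/LFES mice 4, 5 and 6. The mouse with the lowest share, mouse 6, was also the one with the highest miR-22-3p. The library of mouse 6 also stood apart in its TMM factor, 2.12, against 0.65 to 1.11 in the other libraries. As a percent of the total count, miR-22-3p took 0.372%, 0.211% and 0.263% after sham and 0.450%, 0.407% and 1.48% after Acu/LFES. The exact binomial 95% interval was 0.392% to 0.423% in mouse 5 and 0.357% to 0.387% in mouse 1, so these nearest libraries of the opposite groups differed by more than counting error, which is all the intervals cover. Without the counts of miR-486a-5p and miR-486b-5p in the total, the share was 0.971%, 0.810% and 0.913% after sham and 1.18%, 1.54% and 2.09% after Acu/LFES. Mouse 6 was again the highest, and every Acu/LFES mouse lay above every sham mouse, as for 12% of all miRNAs. The part of miR-486a-5p and miR-486b-5p in the difference was not tested.

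The log2 fold change of miR-22-3p was positive under each of the 10 scalings that were compared, but its size was not fixed. It was lowest when libraries were scaled to miR-16-5p, at 0.65 (standard error 0.34), and highest with total counts, at 1.47 (standard error 0.58). With upper-quartile factors it was 0.66 (standard error 0.24), with the totals that leave out miR-486a-5p and miR-486b-5p 0.84 (standard error 0.25), and scaled to miR-103-3p 0.82 (standard error 0.54). Most of this range was a shift of all miRNAs together. The median over all miRNAs tested was 0.05 with TMM factors, 0.11 with miR-103-3p, 0.14 with the reduced totals, 0.36 with miR-191-5p, 0.71 with total counts and 0.74 with miR-423-5p. Relative to that median, miR-22-3p was higher by a log2 difference of 0.65 to 0.76 under all 10 scalings. Those to miR-191-5p and to miR-423-5p were added after seeing the data.

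**Figure D2:**
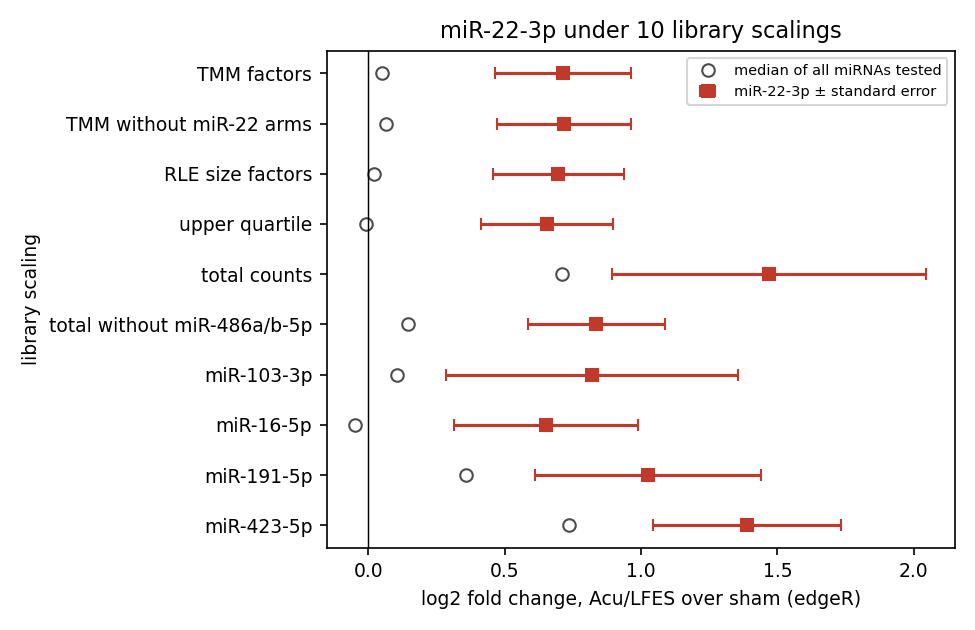
Log2 fold change of miR-22-3p, Acu/LFES over sham (horizontal axis), from edgeR under each library scaling (vertical axis), as squares with bars of 1 standard error, and the median of all miRNAs tested as open circles. miR-22-3p runs from 0.65 to 1.47 and the median moves with it, so the gap between them stays between 0.65 and 0.76.

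Ratios within a library need no scaling and show which mice carry the difference. The first set of denominators was 4 miRNAs often used as references in serum. The log2 ratio of miR-22-3p to miR-103-3p was 2.20, 1.24 and 2.66 in sham mice 1, 2 and 3 and 1.97, 3.13 and 3.44 in Acu/LFES mice 4, 5 and 6. The ratio to miR-16-5p was -1.11, -1.32 and -1.15 after sham and -1.41, -0.26 and -0.23 after Acu/LFES. For both the groups overlapped, because mouse 4 lay among or below the sham mice. Relative to these references all Acu/LFES mice lay above all sham mice for 8.53% and 5.04% of the miRNAs. Against miR-191-5p and miR-423-5p mouse 4 lay above them. The log2 ratio to miR-191-5p was 1.45 ± 0.39 in sham and 2.46 ± 0.44 in Acu/LFES mice, and that to miR-423-5p was -0.64 ± 0.22 in sham and 0.73 ± 0.39 after Acu/LFES (SD, n = 3 each). In neither did the groups overlap. Relative to miR-191-5p every Acu/LFES mouse lay above every sham mouse for 11.2% of all miRNAs, and relative to miR-423-5p, which itself had a log2 fold change of -0.66 with TMM factors, for 26%.

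Muscle-enriched miRNAs were the second set of denominators. miR-133a-3p, which acts in muscle differentiation, had 4748, 2563 and 1916 counts after sham and 8639, 2574 and 8860 after Acu/LFES, and on the TMM scale its log2 fold change was -0.04 (standard error 0.25). The log2 ratio of miR-22-3p to miR-133a-3p was -1.03, -0.88 and -0.89 in sham mice 1, 2 and 3 and -0.35, -0.0022 and -0.21 in Acu/LFES mice 4, 5 and 6. The groups did not overlap, and the difference of the means was 0.75 on the log2 scale. Relative to miR-133a-3p the same held for 6.98% of all miRNAs tested. The ratio to miR-206-3p, a miRNA restricted to skeletal muscle, was 2.10 ± 0.95 in sham and 3.42 ± 0.54 in Acu/LFES mice on the log2 scale (SD, n = 3 each), also without overlap, as was the case for 8.53% of all miRNAs. The ratio to miR-1a-3p, which is specific to striated muscle, was -0.066, -0.17 and 0.076 after sham and -0.30, 1.57 and 1.00 after Acu/LFES, so mouse 4 was the lowest of all 6. Groups without overlap were found for 7.36% of all miRNAs relative to miR-1a-3p.

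As a sum the muscle list overlapped between the groups. Its 7 miRNAs added up to between 10094 and 11262 CPM after sham and between 7483 and 12453 CPM after Acu/LFES. 3 of the 7 were tested, with 0 at an unadjusted p under 0.05 in either direction, beside 8.88% of all miRNAs, and a median log2 fold change of -0.04, beside 0.05 over all miRNAs tested. With 3 members tested, nothing is read from that count. miR-208a-3p and miR-208b-3p, which are made with the heavy chains of heart and slow muscle myosin, had 0 counts in all 6 mice. miR-499-5p, of the same kind, had 0 counts after sham and 51, 0 and 20 after Acu/LFES. miR-133b-3p, which is transcribed together with miR-206-3p in skeletal muscle, was also scarce, with 8, 1 and 1 counts after sham and 7, 4 and 6 after Acu/LFES. The list thus held 3 miRNAs that were well counted and 4 that were at or near 0. A muscle origin of miR-22-3p was not tested.

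**Figure D3:**
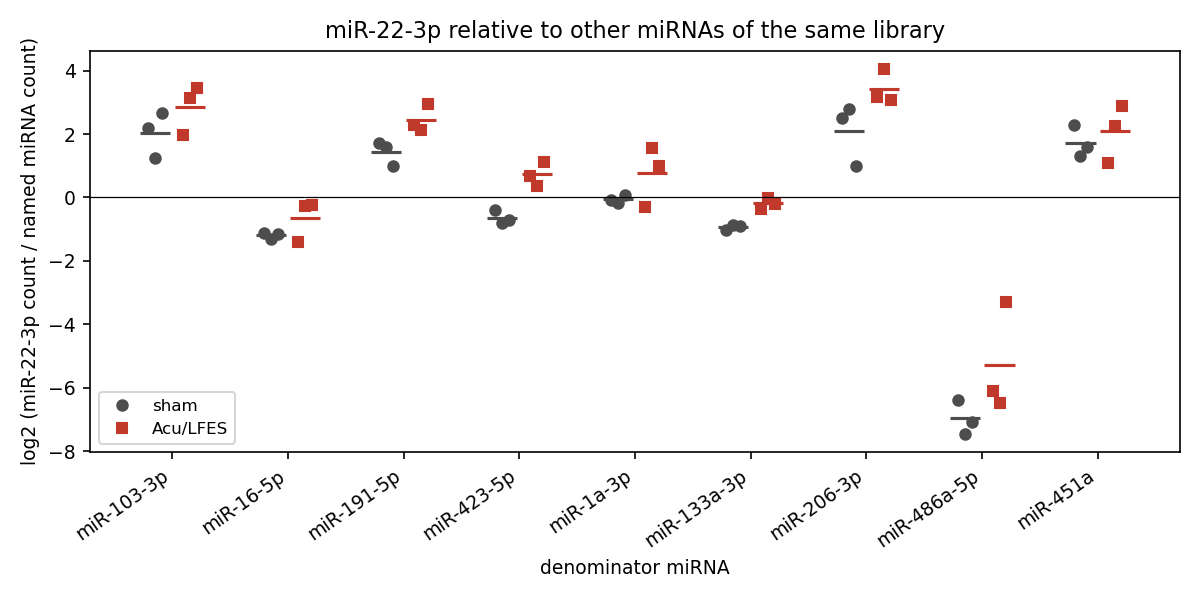
Log2 ratio of the miR-22-3p count to the count of another miRNA of the same library (vertical axis), for 9 denominators (horizontal axis), with 1 circle per sham mouse, 1 square per Acu/LFES mouse and a line at each group mean. The groups are apart for miR-191-5p, miR-423-5p, miR-133a-3p and miR-206-3p, and they overlap for miR-103-3p, miR-16-5p, miR-1a-3p, miR-486a-5p and miR-451a.

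miRNAs of blood cells and of other tissues were compared in the same way. The sum of the 5 miRNAs listed for red cells ran from 556877 to 1138429 CPM after sham and from 138817 to 965923 CPM after Acu/LFES. TMM factors let such a sum pass the total of the library. Nearly all of it was miR-486a-5p and miR-486b-5p, whose identical counts entered on both rows, at 68843 CPM each in mouse 6. Whether the reads of these rows came from red cells was not tested. The other tested members of the list were not low in mouse 6. There miR-451a stood at 941 CPM, within its sham range of 691 to 1299 CPM, and miR-144-5p at 189 CPM, within 107 to 350 CPM. Their means were higher after Acu/LFES, whereas that of miR-486a-5p was lower. The log2 ratio of miR-22-3p to miR-451a, a red-cell miRNA, was 1.73 ± 0.50 in sham and 2.08 ± 0.92 after Acu/LFES (SD, n = 3 each). The groups overlapped, and 2.71% of all miRNAs were higher without overlap on that scale. Relative to miR-486a-5p the groups also overlapped, beside 13.2% of all miRNAs higher without overlap. The 6 miRNAs of white cells and platelets added up to 6989 to 8022 CPM in sham and 5414 to 7340 CPM in Acu/LFES mice, the 3 of liver to 10285 to 23630 and 4063 to 17948 CPM, and the 2 of endothelium to 2151 to 2589 and 1487 to 2171 CPM. The 2 neuron miRNAs had 0 counts in every mouse but mouse 4. In edgeR's quasi-likelihood test 0 members of these lists had an unadjusted p under 0.05 and 0 an adjusted p under 0.05, beside 8.88% and 0% of all miRNAs. Their part in the level of miR-22-3p was not tested.

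Over the 29 miRNAs listed as references or markers, 23 had counts in every mouse and could serve as a denominator. The mean log2 ratio of miR-22-3p was higher after Acu/LFES for 22 of the 23, with a median difference of 0.84. All these ratios share the counts of miR-22-3p, whose group difference was known. Both miR-486a-5p and miR-486b-5p, with identical counts, are among the 23. Nothing is therefore read from the count of 22. The groups were without overlap for 7 of the 23. Besides the 4 named, these were the liver miRNAs miR-192-5p and miR-122-5p and the endothelial miR-126a-5p. Relative to these 3, every Acu/LFES mouse lay above every sham mouse for 13.2%, 3.88% and 25.6% of all miRNAs.

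miR-22-5p, the arm that is usually degraded, was scarce. It had 5, 20 and 12 counts in sham mice 1, 2 and 3 and 94, 28 and 48 in Acu/LFES mice 4, 5 and 6. Sham mouse 1 was the lowest although its library had more total counts than those of mice 3 and 6. On the TMM scale miR-22-5p stood at 7.21, 46.7 and 39.7 CPM after sham and at 56.3, 58.2 and 43.8 CPM after Acu/LFES. A count of 3, taken as the smallest that shows a miRNA, was worth between 1.80 CPM in mouse 4 and 9.91 CPM in mouse 3, so sham mouse 1, with its own floor at 4.32 CPM, was only just above it. The groups overlapped, with mouse 6 below sham mouse 2.

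The mean of miR-22-5p was 31.2 CPM in sham mice, with a coefficient of variation of 67.5%, and 52.8 CPM in Acu/LFES mice, with 14.8% (n = 3 each). The log2 fold change was 0.78 with a standard error of 0.85, larger than the value itself. Without sham mouse 1 it was 0.32 (standard error 0.65), and without sham mouse 2 it was 1.23 (standard error 0.93). With total counts the groups no longer overlapped, with at most 30.6 CPM in any sham mouse and at least 44.4 CPM in any Acu/LFES mouse, beside 15.8% of all miRNAs for which this held. They were also apart with totals that leave out miR-486a-5p and miR-486b-5p, and when scaled to miR-191-5p or to miR-423-5p. The same held for 12%, 11.2% and 26% of all miRNAs. With upper-quartile factors, the size factors of DESeq2, miR-103-3p and miR-16-5p the groups overlapped, as with TMM factors.

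The arm ratio, the count of miR-22-3p over that of miR-22-5p in the same library, does not depend on scaling. It was 465, 69.5 and 85.9 in sham mice 1, 2 and 3, and 72.1, 91.8 and 160 in Acu/LFES mice 4, 5 and 6. In every mouse the 3p arm was in large excess, and the ratio of sham mouse 1, which rests on 5 counts of miR-22-5p, was the highest. Its exact binomial 95% interval, which covers counting error only, ran from 199 to 1432. That did not reach the intervals of sham mouse 2, from 44.8 to 114, or of sham mouse 3, from 49.0 to 167. The interval of mouse 6, from 121 to 217, overlapped that of sham mouse 1 and lay above that of mouse 4, from 58.8 to 89.3. Libraries of the same group therefore differed in the arm ratio by more than counting error.

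On the log2 scale the arm ratio was 8.86, 6.12 and 6.42 after sham, with a mean of 7.13, and 6.17, 6.52 and 7.32 after Acu/LFES, with a mean of 6.67 and an SD of 0.59 (n = 3 each). The difference of the means, -0.46, is smaller than the SD of either group. Its direction hung on sham mouse 1, since without that mouse the difference was 0.40. Adding the counts of a group gave a ratio of 128 in sham and of 100.1 in Acu/LFES mice.

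**Figure D4:**
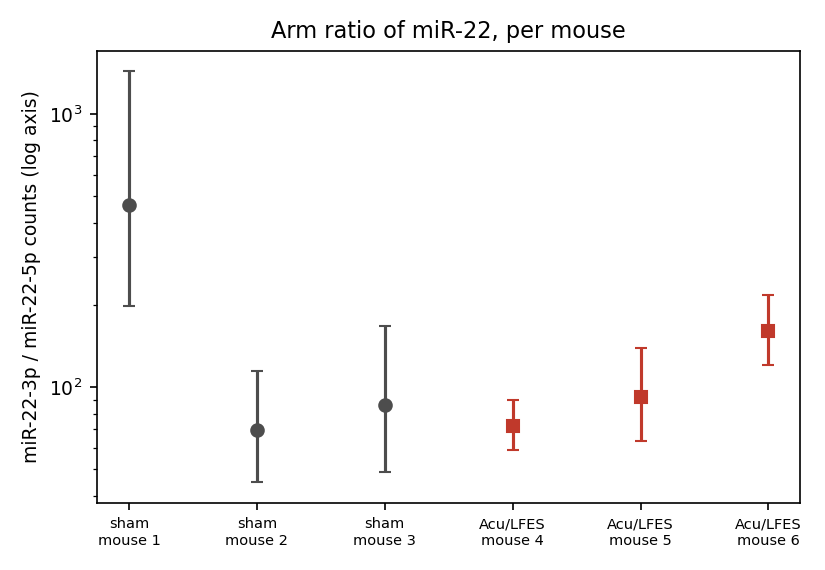
Ratio of miR-22-3p to miR-22-5p counts in each mouse (vertical log axis), with circles for sham mice, squares for Acu/LFES mice and exact 95% binomial intervals as bars. Sham mouse 1 stands at 465, and the other mice lie between 69.5 and 160 in both groups.

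Other hairpins show how lopsided miR-22 is. For 20 hairpins whose arms are listed under a shared name, the more counted arm had at least 1000 counts in every library, a limit chosen after the values of miR-22 were seen. Pooled over the 6 mice, miR-22-5p made up 0.942% of the counts of its hairpin (207 counts beside 21767 of miR-22-3p, exact 95% interval 0.819% to 1.08%). The interval covers counting error only, and the share in single mice ran from 0.215% to 1.42%. The median over the 20 hairpins was 0.209%, with 14 hairpins below miR-22 and 5 above. The neighbours in this order, miR-486b at 0.908% and miR-142a at 1.32%, both lay within the range of miR-22 over single mice. Pooling gives the libraries unequal weight, and mice 4 and 6 held most counts of miR-22-3p. With equal weight per mouse the minor arm of miR-22 was the rarer. The mean log2 ratio of 3p to 5p was 6.90 for miR-22, -6.66 for miR-486b and -6.70 for miR-486a. That change of order hung on single mice. miR-22 stood at 8.86 in sham mouse 1, which had 5 counts of miR-22-5p, and at 6.12 to 7.32 in the others. miR-486b stood at -4.96 in Acu/LFES mouse 6 and at -7.32 to -6.78 in the others. The 3p arm was the more counted in 6 of the 20 hairpins, miR-22 among them.

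Among the hairpins with at least 10 counts on each arm in every library, of which there were 16, miR-22 would have the largest mean log2 ratio of 3p to 5p. The next was miR-199a, at 5.31. miR-22 itself missed that limit because of the 5 counts in sham mouse 1, and the limit leaves out hairpins whose minor arm was rarer still. The arm ratio of miR-22 ranged over 2.74 on the log2 scale between mice, against a median range of 1.95 over the 16 hairpins. Without sham mouse 1 its range was 1.20, and the median range of the 16 was again 1.95. The groups did not overlap in arm ratio for 1 of the 16.

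In the order of mean levels over all 6 mice on the TMM scale, miR-22-3p was number 24 of the 259 miRNAs tested, with 4400 ± 1499 CPM (SD, n = 6). let-7d-5p stood next above with 4505 ± 820 CPM and miR-423-5p next below with 4260 ± 1263 CPM. That order hides a reversal between the groups. In each sham mouse miR-22-3p, with a mean of 3333 CPM, was below let-7d-5p (5002 ± 931 CPM) and miR-423-5p (5224 ± 712 CPM). In each Acu/LFES mouse, with a mean of 5468 CPM, it was above let-7d-5p (4009 ± 272 CPM) and miR-423-5p (3296 ± 834 CPM; SD, n = 3 each). The single values of these miRNAs and of miR-22-3p did not overlap within the sham mice, and within the Acu/LFES mice they did, through mouse 4. Mature miRNAs are of nearly the same length, so CPM were compared without a correction for length. miR-22-5p was number 179, with 42.0 ± 18.5 CPM, between miR-872-5p with 42.2 ± 15.4 CPM and miR-218-5p with 41.9 ± 34.9 CPM, whose values overlapped with its own within both groups. By log2 fold change miR-22-3p was number 51 from the highest of the 259 miRNAs tested. Of the 50 miRNAs with a mean of at least 1000 CPM, 2 had a larger log2 fold change than miR-22-3p. These were the rows miR-199a-3p and miR-199b-3p, named after their values were seen, which had the same values in every mouse. The median log2 fold change of the 50 was -0.09.

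The miRNAs whose pattern over the 6 mice was most like that of miR-22-3p were found by Pearson's r of log2 CPM, as a description over libraries that share the TMM scaling and the split into groups. They were miR-434-3p (r = 0.91), miR-34a-5p (r = 0.88), miR-143-3p (r = 0.83), miR-1249-3p (r = 0.82) and miR-148a-3p (r = 0.82). The groups overlapped for miR-1249-3p and not for the other 4, beside 8.88% of all miRNAs higher without overlap, which follows from the choice by likeness to miR-22-3p. miR-34a-5p had 0 counts in all 3 sham mice, so its r rests on the split into groups and on the Acu/LFES mice. After the group means were taken out, r was 0.69 for miR-434-3p and miR-1249-3p, 0.47 for miR-143-3p and 0.19 for miR-148a-3p. For miR-34a-5p it was 0.84, which rests on the Acu/LFES mice alone. The most opposite patterns were those of miR-26a-5p (r = -0.90), miR-3968 (r = -0.89) and miR-30c-5p (r = -0.87).

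The arms themselves did not follow each other closely. The r between miR-22-3p and miR-22-5p was 0.39 over the 6 mice, and neither was among the miRNAs most like the other. For miR-22-5p the nearest patterns were those of miR-511-5p (r = 0.99) and miR-296-3p (r = 0.95), and then miR-18a-5p, miR-145a-5p and miR-218-5p (r = 0.88 to 0.89), and the farthest were miR-378a-3p, miR-200c-3p and miR-429-3p. By rank the likeness was nearly gone for miR-296-3p, miR-145a-5p and miR-218-5p, with a Spearman's rho of 0.029, 0.086 and 0.20. It was 0.49 for miR-18a-5p, against 0.89 for miR-511-5p. Sham mouse 1, where miR-22-5p had 5 counts, was also the lowest mouse for miR-511-5p, at 38.9 CPM, and had 0 counts of miR-296-3p, miR-18a-5p and miR-218-5p.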

How the data were processed

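Small RNA of serum exosomes from 3 sham and 3 Acu/LFES mice was sequenced in a single lane. The deposited values are raw counts of reads for each mature miRNA, with a column for every mouse. The submitters' processing notes name bcl2fastq, cutadapt 1.6 and DESeq2 1.26.0. The aligner, the counter, the mismatches allowed and the miRNA annotation are not given in the sources used here, and they decide how near-identical reads were shared. Groups and mouse numbers came from the sample titles. The members and lists were chosen with earlier results of these data known.

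edgeR 4.0.16 in R 4.3.3 was fitted to the whole table with TMM factors, its default filter and its quasi-likelihood test, with Benjamini-Hochberg adjustment and 0.05 as the threshold. Standard errors were derived from its F statistic and fold change. DESeq2 1.42.0 served as an alternative. The script was tested on simulated data. An exact permutation test of 3 mice against 3 cannot go below 0.1, so none was run. Totals include 104 counts on 67 rows of other species. No pair of libraries was as alike as a library deposited again. p-values set the group difference against the spread between mice of a group, which was estimated with help from all miRNAs tested.

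Named miRNAs follow a rule: the arms, references, miR-486a-5p and miR-486b-5p, marker lists, neighbours in level, arm ratio and sequence, listed hairpins, and the 5 highest and 3 lowest r with each arm on log2 CPM plus 0.5. Exceptions are said to be named after their values were seen. Alternatives were other scalings, filters, collapsed rows and each mouse left out. Scaling to miR-191-5p and to miR-423-5p was added after seeing the data. Sequences are from RefSeq on GRCm38.p6 and folds from RNAfold 2.7.2.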

Additional observations from a re-analysis of the deposited data

How the results depend on the processing

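The log2 fold change of miR-22-3p kept its direction under the 13 alternatives that left out no mouse, from 0.65 to 1.47, and that of miR-22-5p under 12, from 0.72 to 1.57, since miR-22-5p was not tested where at least 10 counts in every library were asked for. Neither arm had an adjusted p under 0.05 under any of them, and DESeq2 gave none for miR-22-5p. Across the 6 fits that each left out a mouse, miR-22-3p ranged from 0.53 to 0.89, lowest without Acu/LFES mouse 6, and miR-22-5p from 0.32 to 1.23. The number of all miRNAs with an adjusted p under 0.05 was 0 in edgeR, against 23 at an unadjusted p under 0.05, and 8 in DESeq2, miR-22-3p not among them; the cause was not tested. The split of unadjusted calls was 15 higher and 8 lower with TMM factors, but 23 and 0 with total counts, 20 and 6 with totals that leave out miR-486a-5p and miR-486b-5p, and 6 and 0, 6 and 8, 19 and 0, and 60 and 0 when scaled to miR-103-3p, miR-16-5p, miR-191-5p and miR-423-5p. With no filter, 954 miRNAs were tested, their median rose to 0.68 and miR-22-3p, at 0.76, was close to it. The group difference of the log2 arm ratio went from -0.97 to 0.40 with a mouse left out, positive without sham mouse 1, and from -0.40 to -0.35 with 0.5 or 1 count added to each arm. The share of counts on miR-22-3p was higher with Acu/LFES by 0.498 percentage points, and by 0.147 to 0.685 with a mouse left out, lowest without Acu/LFES mouse 6. No paired analysis was possible because the mouse numbers are not shared between the groups. The counts of miR-22-5p, down to 5, and the spread between mice limit what can be said of that arm and of the arm ratio.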
